A study of Mus musculus with 9 samples.

Results

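Livers of mice labelled as treated with an antibody to the glucagon receptor were compared with livers of wild-type mice given phosphate-buffered saline (PBS), gene by gene. The members are the 3 libraries whose titles name the antibody and the Gcgr+/+ genotype, set against the 3 titled as PBS-treated Gcgr+/+, which makes 6 of the 9 libraries of the series. The remaining 3, from PBS-treated mice titled Gcgr-/-, entered the filter on low values and the shared estimate of spread, and were set directly against the antibody-labelled livers for some genes. All mice were adult C57Bl6 males aged 16 to 20 weeks that had fasted for 6 h, and each gave a liver punch of about 100 mg. The antibody was a humanized monoclonal, injected into the peritoneum once a week at 10 mg/kg over 10 days. Poly(A)-selected RNA was read on a HiSeq2500, with 50 M paired reads of 50 bp per library stated in the labels. The labels give no batch, litter or day, so a p-value here measures the spread between these livers and no more.

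Glucagon is the hormone of the fasted state. Its receptor on hepatocytes is coupled to a stimulatory G protein, and the cyclic AMP (cAMP) it raises activates protein kinase A and the factor CREB. In liver this pathway is known for raising glucose output and for driving the uptake and breakdown of amino acids, whose nitrogen leaves as urea. Loss of the signal is known to raise amino acids in blood, and these in turn stimulate the pancreatic alpha cells that make glucagon.

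The deposited table holds normalized values per gene, with a lowest value of 1, and these are the values printed below, library 1 to 3 in order. They are not divided by gene length, so a level is compared only within a gene. The 6 libraries summed to between 42.4 and 47.4 M normalized counts, with an estimated 21.7 to 30.1 M reads assigned to genes. Spearman correlations between libraries were 0.983 to 0.990 within a group and 0.980 to 0.989 between groups. The second principal component (16.3% of the variance) placed the wild-type libraries at 28.9 to 34.8 and the antibody-labelled libraries at -36.2 to -27.0. Knockout-labelled library 1, with an estimated 10.99 M reads, stood apart on the first component. A fall in a liver punch can come from less RNA per cell or from fewer cells of a type, and these cannot be told apart.

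Gcgr, which encodes the receptor the antibody binds, checks the labels and went against one of them. Gcgr (mm9 chromosome 11, 120392013 to 120400402) stood at 19547, 17565 and 18450 in the wild-type libraries and at 2271, 2496 and 1808 in the antibody-labelled libraries. In the libraries labelled as knockout it stood at 27365, 19656 and 21128. The antibody-labelled livers were thus the ones with low receptor RNA, at 11.8% of wild type, and the knockout-labelled livers were not. Gcgr fell by 3.09 on the log2 scale against wild type (SE 0.15, adjusted p = 2.29e-06) and passed in all 18 alternative analyses. Whether the labels of these 2 groups were exchanged was not tested. If they were, every fold change given here for the antibody-labelled livers would be that of the knockout, and the direct contrast would change sign. The groups are called by their labels throughout.

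A group of 268 genes differed between antibody-labelled and wild-type livers at an adjusted p under 0.05, of 20029 tested (1.34%). They split into 143 that rose (0.714% of the tested genes) and 125 that fell (0.624%). A change of at least 2-fold was reached by 90 of the risen and 69 of the fallen genes, and one of at least 4-fold by 36 and 23. The median log2 fold change of all tested genes was 0.00. The 3 antibody-labelled libraries did not overlap the 3 wild-type libraries in any of the 268 genes, as in 19.2% of all tested genes. At an unadjusted p under 0.05 there were 2057 genes. The count fell to 109 without wild-type library 2, to 117 without wild-type library 1, to 105 without antibody-labelled library 2, and to 157 and 165 without antibody-labelled libraries 3 and 1. In 74 of the 268 genes the call held whichever of the 9 libraries was left out.

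**Figure D1:**
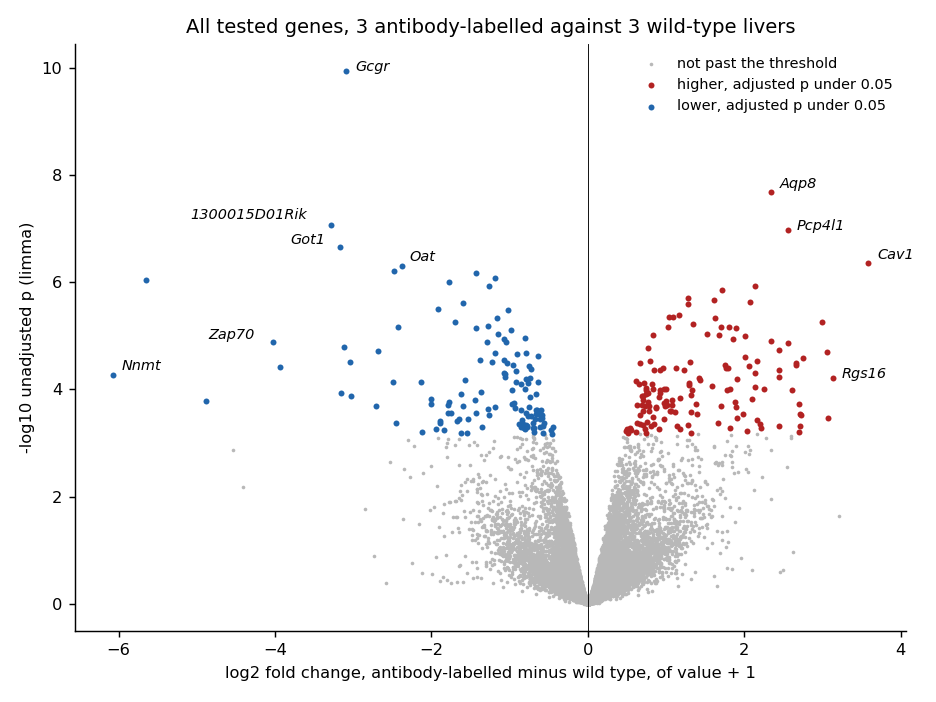
Each point is 1 of the 20029 tested genes, with the log2 fold change of antibody-labelled against wild-type livers (value + 1) on the x axis and the -log10 of the unadjusted limma p on the y axis. The 143 genes that rose are red and the 125 that fell are blue, with Gcgr the topmost point at a log2 fold change of -3.09.

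Among genes at or above the median level whose groups did not overlap, the 12 lowest fold changes were led by Nnmt, Zap70 and the antisense transcript 1300015D01Rik. Nnmt encodes nicotinamide N-methyltransferase, which uses a methyl group of S-adenosylmethionine to mark nicotinamide for excretion. Nnmt (chromosome 9, 48399982 to 48413258) stood at 5869, 5396 and 1141 in wild type and at 62.1, 30.2 and 59.4 in antibody-labelled livers. Wild-type library 3 was the low one of its group, and even it lay far above all 3 antibody-labelled libraries. Nnmt fell by 6.07 on the log2 scale (SE 0.72, adjusted p = 0.0119). The call ended without antibody-labelled library 2 (adjusted p = 0.0577) or 3 (0.0537), with the fold change between -6.84 and -5.66 over all alternatives.

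Zap70, a tyrosine kinase known from T cell receptor signalling, stood at 879, 790 and 374 in wild type and at 62.1, 41.1 and 21.8 in antibody-labelled livers (log2 fold change -4.02, SE 0.49, adjusted p = 0.0053). It passed in all 18 alternatives. None of the 21 markers of T, B and NK lymphocytes passed beside it. Their summed value was 464, 539 and 1225 in wild type and 626, 619 and 668 in antibody-labelled livers. Wild-type library 3 thus had the highest lymphocyte sum and the lowest Zap70 value of its group. Cd3e, a chain of the T cell receptor complex, did not pass. It reached 86.3 at most in wild type and lay between 10.3 and 31.5 in antibody-labelled livers. The lymphocyte sums of the groups overlapped while those of Zap70 did not.

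The transcript 1300015D01Rik (chromosome 2, 172936319 to 172958705) stood at 1470, 1257 and 1359 in wild type and at 214, 153 and 81.0 in antibody-labelled livers. It fell by 3.29 on the log2 scale (SE 0.27, adjusted p = 0.000533). It overlaps Ctcfl on the other strand, which fell by 1.75 (adjusted p = 0.0292, up to 0.127 when any 1 of the 6 compared libraries was left out), and whether the counting used strand is not given in the sources used here. Gm15690 overlaps Sds in the same way and fell by 1.88 (adjusted p = 0.036). The call of Gm15690 ended when any of the 6 compared libraries or knockout-labelled library 1 was left out, with adjusted p up to 0.133.

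The others of the 12 were enzymes of amino acid and steroid metabolism, a phosphodiesterase, and single genes of other roles. Cyp17a1, the steroid 17-alpha-hydroxylase, stood at 1092, 1137 and 964 in wild type and at 149, 79.6 and 184 in antibody-labelled livers (log2 fold change -3.02, SE 0.46, adjusted p = 0.0192). Its call ended without wild-type library 1 or 2 or antibody-labelled library 1 or 2, at an adjusted p of at most 0.0862. Sult5a1, a cytosolic sulfotransferase, fell from 401, 287 and 383 to 84.6, 45.6 and 41.5 (log2 fold change -2.68, adjusted p = 0.0071). Lhpp, a phosphatase of phospholysine and phosphohistidine, fell from 7750, 7582 and 4030 to 1798, 1815 and 1335 (log2 fold change -1.92, adjusted p = 0.00301). Its groups were well apart although wild-type library 3 was low, as it was for Nnmt and Zap70. Lhpp and Oat lie within the table's annotated span of Fgfr2, whose own log2 fold change was 0.20 (adjusted p = 0.815). Olfr9, annotated as an olfactory receptor, fell by 1.88 (adjusted p = 0.0389), a call that ended without wild-type library 1 or 2, knockout-labelled library 2 or 3, or antibody-labelled library 2 or 3 (adjusted p up to 0.143).

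The 12 highest fold changes were led by Cav1, Rgs16, Pcp4l1 and Aqp8. Cav1 encodes caveolin-1, the coat protein of caveolae, the small pits of the plasma membrane. Cav1 (chromosome 6, 17256335 to 17291452) stood at 159, 274 and 372 in wild type and at 3644, 3330 and 2310 in antibody-labelled livers (log2 fold change 3.58, SE 0.31, adjusted p = 0.00144). The lowest antibody-labelled library held several times the highest wild-type one, and the call held in all 18 alternatives. Rgs16, which switches off signalling by inhibitory and Gq-class G proteins, stood at 5614, 2126 and 7791 in wild type and at 47580, 36772 and 35720 in antibody-labelled livers (log2 fold change 3.13, SE 0.42, adjusted p = 0.0129). Without antibody-labelled library 2 its adjusted p was 0.0577, and with only the 6 compared libraries fitted it was 0.058.

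Pcp4l1, annotated as Purkinje cell protein 4-like 1, rose from 254, 221 and 396 to 1975, 1421 and 1643 (log2 fold change 2.56, SE 0.23, adjusted p = 0.000533). Aqp8, a water channel of the hepatocyte, rose from 888, 1060 and 663 to 4588, 4280 and 4178 (log2 fold change 2.34, SE 0.18, adjusted p = 0.000206). Both passed in all 18 alternatives, and the antibody-labelled Aqp8 values lay closely together. Hcn3, a pacemaker-type ion channel, rose from 222, 269 and 107 to 647, 875 and 832 (log2 fold change 2.06, adjusted p = 0.00957). Hcn3 overlaps the end of Pklr on the other strand, and Pklr rose too. Fabp5, an intracellular carrier of fatty acids, rose from 107, 173 and 116 to 385, 462 and 789 (log2 fold change 2.00, adjusted p = 0.00473).

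Of the others of the 12, 4930485B16Rik rose by 2.08 (adjusted p = 0.00252) and Epb4.1l1, a membrane skeleton protein, by 1.86 (adjusted p = 0.00509). Both held whichever library was left out, but Epb4.1l1 did not pass with limma's trend and robust options off (adjusted p = 0.0575). Orm3, an orosomucoid, rose by 2.14 (adjusted p = 0.0157, up to 0.080 without wild-type library 1 or 2 or antibody-labelled library 2 or 3). Ly6d, a surface protein anchored by a lipid, rose by 1.91 (adjusted p = 0.0129, up to 0.0596 without antibody-labelled library 1 or 2). Fam198a rose by 1.89 (adjusted p = 0.0224, up to 0.102 without wild-type library 2 or 3 or antibody-labelled library 2 or 3).

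**Figure D2:**
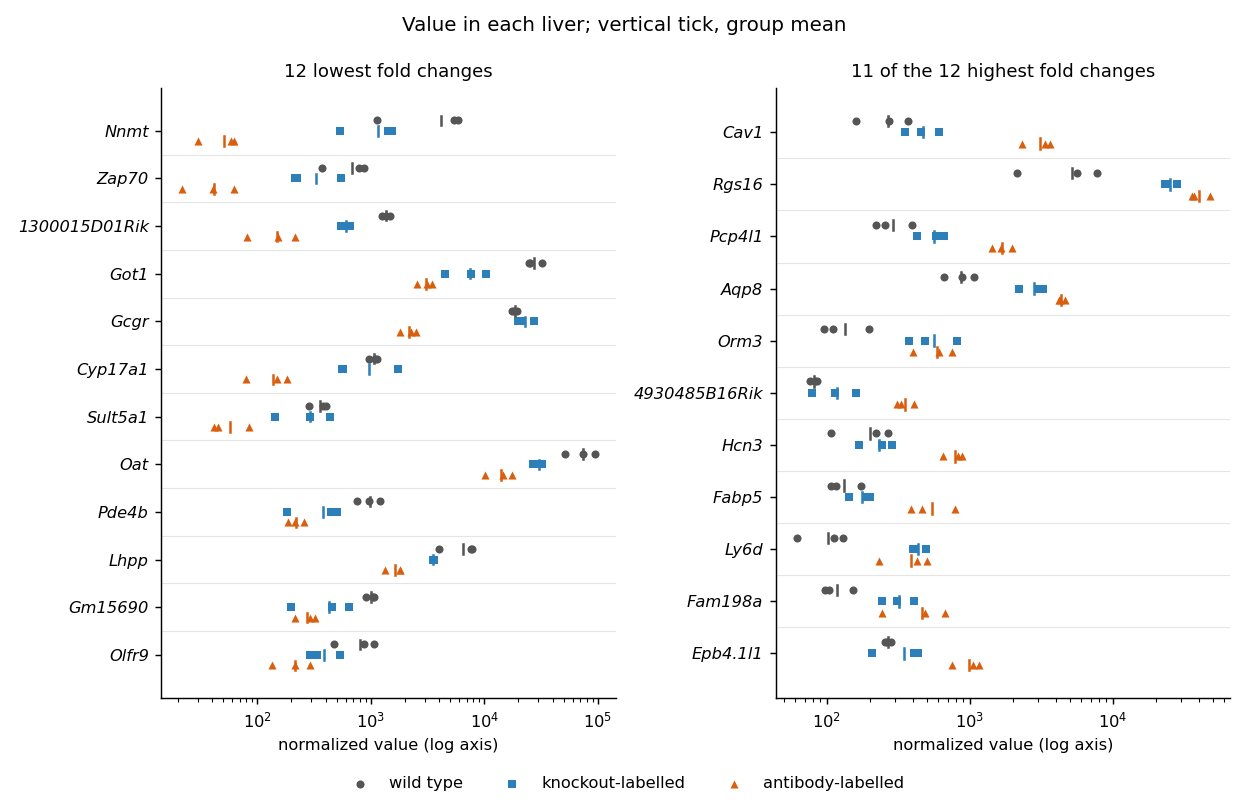
Each point is the normalized value of 1 liver on a log axis for the 12 genes with the lowest (left) and 11 of the 12 with the highest (right) fold change, with grey circles for wild type, blue squares for knockout-labelled and orange triangles for antibody-labelled, and a tick at each group mean. The genes were chosen among called genes whose orange triangles and grey circles do not overlap. Gcgr is the one on the left whose blue squares all lie above its grey circles.

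Genes of amino acid metabolism are given by pathway. Here and in the later lists, counts of called members are to be read beside the 1.34% called over all tested genes. Of 15 aminotransferases, which move the amino group between amino acids and keto acids, 4 fell, 1 rose and 10 did not pass, with a median log2 fold change of -0.33. Got1, the cytosolic aspartate aminotransferase (chromosome 19, 43574242 to 43599095), stood at 32435, 25190 and 24708 in wild type and at 3163, 3438 and 2583 in antibody-labelled livers. It fell by 3.16 on the log2 scale (SE 0.26, adjusted p = 0.000892) and passed in all 18 alternatives. Its mitochondrial partner Got2 stood at 15877, 14298 and 13808 in wild type and at 14193, 13282 and 14267 in antibody-labelled livers (log2 fold change -0.07, SE 0.11, adjusted p = 0.912). The Got2 groups overlapped where those of Got1 lay far apart.

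Oat, ornithine aminotransferase (chromosome 7, 139749158 to 139768081), fell from 94953, 74569 and 51026 to 17434, 14690 and 10065 (log2 fold change -2.38, SE 0.23, adjusted p = 0.00145). Agxt, alanine-glyoxylate aminotransferase, fell from 20369, 22718 and 14999 to 8074, 9128 and 8524 (log2 fold change -1.16, adjusted p = 0.00343). Abat, which breaks down GABA, fell by 0.60 (adjusted p = 0.027), a call that ended when any 1 of the 6 compared libraries was left out (adjusted p up to 0.139). The exception was Psat1 of serine synthesis, which rose from 17.4, 19.5 and 25.3 to 137, 52.7 and 134 (log2 fold change 2.22, adjusted p = 0.0423). Its call ended when any wild-type library, knockout-labelled library 1, or antibody-labelled library 1 or 3 was left out (adjusted p up to 0.164). Gpt, alanine aminotransferase, stood at -0.40 (SE 0.19, adjusted p = 0.52).

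Of 18 genes of methionine and sulfur amino acid metabolism, 4 fell and none rose. Mat1a, which makes S-adenosylmethionine, stood at 328508, 267496 and 327517 in wild type and at 157372, 148966 and 158498 in antibody-labelled livers (log2 fold change -0.98, SE 0.13, adjusted p = 0.00408). The 3 antibody-labelled values lay within a narrow band, at 50.3% of the wild-type mean. Cth, cystathionine gamma-lyase, fell from 41686, 33055 and 35922 to 11489, 10512 and 11906 (log2 fold change -1.70, SE 0.22, adjusted p = 0.0039). Cbs, cystathionine beta-synthase, fell by 0.97 (adjusted p = 0.0162, up to 0.090 without wild-type library 1 or 2 or antibody-labelled library 1 or 2). Suox, sulfite oxidase, fell by 0.65 (adjusted p = 0.0268, up to 0.127 without wild-type library 1 or 2 or any antibody-labelled library). Gnmt (-0.60, adjusted p = 0.241) and Ahcy (-0.23, adjusted p = 0.73), which act between Mat1a and Cbs, did not pass, and the median of the 18 was -0.16.

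Among 18 genes of serine, glycine and threonine metabolism 2 fell and 1 rose. Sdsl, a serine dehydratase-like enzyme, fell from 2270, 2521 and 2508 to 492, 855 and 847 (log2 fold change -1.78, SE 0.19, adjusted p = 0.00169). Sds, serine dehydratase, lies next to it and did not pass, with 14416, 12442 and 14307 in wild type and 3628, 4328 and 3080 in antibody-labelled livers (log2 fold change -1.91, SE 0.37, adjusted p = 0.0555). The Sds groups did not overlap. Of 8 genes of phenylalanine and tyrosine breakdown all 8 had negative fold changes and 2 fell. Hgd, homogentisate dioxygenase, fell from 45320, 38913 and 36666 to 17190, 16410 and 15863 (log2 fold change -1.28, SE 0.18, adjusted p = 0.0053).

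Lysine breakdown was represented by 8 genes, all with negative fold changes, of which 1 fell. This was Aass, which carries out the first steps of the pathway, with 37352, 36286 and 39375 in wild type and 16316, 18435 and 15229 in antibody-labelled livers (log2 fold change -1.18, SE 0.13, adjusted p = 0.00165). None of 20 genes of branched-chain amino acid breakdown passed, although 19 of them had a negative fold change. The 20 ranged from -0.60 to 0.03 with a median of -0.13. An unadjusted p under 0.05 was reached by 4 of the 20, against 2057 of the 20029 tested genes. None of 4 genes of histidine breakdown passed either. Among 17 genes of tryptophan and NAD metabolism, Nnmt fell and Nampt, which salvages nicotinamide into NAD, rose from 5261, 4888 and 6353 to 9017, 8285 and 9751. The rise of Nampt was 0.72 (SE 0.12, adjusted p = 0.0138, up to 0.0819 without wild-type library 1 or 2 or antibody-labelled library 1 or 3). Tdo2, which opens the tryptophan ring, did not pass (-0.48, adjusted p = 0.388).

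Of 16 genes of glutamine, glutamate, asparagine and proline 1 fell and none rose. Gls2, the liver glutaminase that releases ammonia from glutamine, fell from 25904, 23214 and 19812 to 6185, 8952 and 5303 (log2 fold change -1.78, SE 0.30, adjusted p = 0.0224). Its call ended without wild-type library 1 or 2, knockout-labelled library 1 or antibody-labelled library 1 or 3 (adjusted p up to 0.0892). Glul, glutamine synthetase, stood at 45467, 40279 and 41937 in wild type and at 53095, 42554 and 50147 in antibody-labelled livers, with overlapping groups (log2 fold change 0.19, adjusted p = 0.70).

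Of 8 urea cycle genes 2 fell, and the median was -0.41. Ass1, argininosuccinate synthase, fell from 22013, 18200 and 21707 to 7808, 9863 and 9576 (log2 fold change -1.19, SE 0.17, adjusted p = 0.00725). Slc25a15, which carries ornithine into mitochondria, fell from 30174, 25539 and 21048 to 13895, 11386 and 11581 (log2 fold change -1.05, SE 0.15, adjusted p = 0.0053). Both calls held whichever library was left out, but ended with limma's trend and robust options off (adjusted p = 0.0716 and 0.0579). Cps1, the mitochondrial entry enzyme, stood at -0.43 (adjusted p = 0.476), Asl at -0.80 (adjusted p = 0.0952), Arg1 at -0.38 (adjusted p = 0.437), Nags at -0.39 (adjusted p = 0.276) and Otc at 0.03 (adjusted p = 0.982).

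Of 34 amino acid transporters of the plasma membrane 2 fell. Slc7a2, which carries cationic amino acids, stood at 78666, 52505 and 85537 in wild type and at 26884, 32022 and 29175 in antibody-labelled livers (log2 fold change -1.27, SE 0.17, adjusted p = 0.00395), and it passed in all 18 alternatives. Slc3a1, the heavy chain of a cystine and dibasic amino acid exchanger, fell by 1.07 (adjusted p = 0.0109, up to 0.0606 without wild-type library 2 or antibody-labelled library 2). Slc38a4, a sodium-coupled transporter of neutral amino acids, stood at -0.33 (adjusted p = 0.466). Slc43a1, a transporter of large neutral amino acids, stood at 735, 880 and 711 in wild type and at 224, 307 and 120 in antibody-labelled livers, yet did not pass (log2 fold change -1.92, SE 0.53, adjusted p = 0.19). Slc38a5 was near the floor in all 6 livers, at 1 to 2.18.

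Of 38 mitochondrial carriers of the Slc25 family 5 fell and none rose. Slc25a22, a glutamate carrier, fell from 25611, 20863 and 19877 to 9971, 8924 and 8533 (log2 fold change -1.27, SE 0.14, adjusted p = 0.00171). Slc25a45 fell by 0.90 (adjusted p = 0.00749). Mcart1 fell by 0.97 (adjusted p = 0.0238, up to 0.118 without wild-type library 1 or 3 or antibody-labelled library 2 or 3). Slc25a34 fell by 0.77 (adjusted p = 0.0306, up to 0.124 when any 1 of the 6 compared libraries was left out). In the tricarboxylic acid cycle list, which takes up the carbon skeletons, 1 of 32 genes fell. This was Fh1, fumarate hydratase, with 18621, 15636 and 13647 in wild type and 7798, 7577 and 7254 in antibody-labelled livers (log2 fold change -1.07, SE 0.15, adjusted p = 0.00508).

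**Figure D3:**
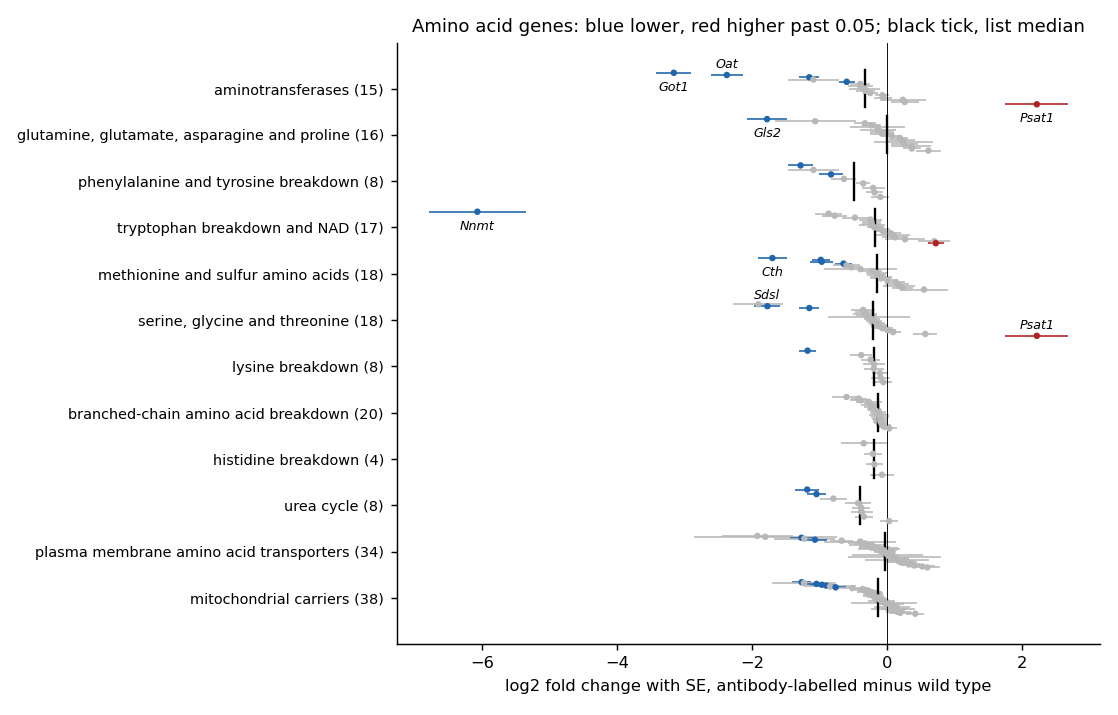
The x axis is the log2 fold change of antibody-labelled against wild-type livers with its SE, for the tested members of 12 amino acid lists, with the number of members in brackets, blue for genes that fell, red for genes that rose and grey for genes that did not pass. The black tick is the median of a list, which lies at or below 0 in all 12, and Got1, Oat and Nnmt are the outlying blue points.

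CREB binds the palindrome TGACGTCA and the shorter TGACG within it, and 4 promoters are shown because their genes fell and their windows differ in these letters. The windows run from 250 bases before to 50 after a RefSeq transcript start (build GRCm38.p6). Each TGACG or its reverse complement CGTCA is in capitals. Windows were found for 82 of the 125 genes that fell and 93 of the 143 that rose. The Zap70 window (chr1:36761548-36761847, plus strand, the first of 3 starts) and the Elovl5 window (chr9:77917115-77917414, plus strand) hold the full palindrome. The Aass window (chr6:23132937-23133236, minus strand) holds TGACG alone, and the Got1 window (chr19:43524556-43524855, minus strand) holds neither.
Zap70: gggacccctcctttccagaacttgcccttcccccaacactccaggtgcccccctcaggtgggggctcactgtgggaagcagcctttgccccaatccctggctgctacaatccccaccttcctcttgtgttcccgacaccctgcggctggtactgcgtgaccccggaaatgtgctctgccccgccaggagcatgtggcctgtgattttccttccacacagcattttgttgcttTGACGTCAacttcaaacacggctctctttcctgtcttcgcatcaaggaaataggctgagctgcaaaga
Elovl5: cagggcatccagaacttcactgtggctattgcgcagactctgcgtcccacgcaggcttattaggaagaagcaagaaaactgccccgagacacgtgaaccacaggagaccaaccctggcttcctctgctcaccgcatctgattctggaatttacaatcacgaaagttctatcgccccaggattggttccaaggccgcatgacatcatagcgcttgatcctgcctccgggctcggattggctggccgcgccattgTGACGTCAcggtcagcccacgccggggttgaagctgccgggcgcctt
Aass: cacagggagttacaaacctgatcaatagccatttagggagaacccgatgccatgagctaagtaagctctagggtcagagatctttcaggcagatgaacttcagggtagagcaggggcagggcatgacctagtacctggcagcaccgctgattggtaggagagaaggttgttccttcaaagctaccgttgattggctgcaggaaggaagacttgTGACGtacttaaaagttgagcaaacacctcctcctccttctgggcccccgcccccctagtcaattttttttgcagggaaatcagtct
Got1: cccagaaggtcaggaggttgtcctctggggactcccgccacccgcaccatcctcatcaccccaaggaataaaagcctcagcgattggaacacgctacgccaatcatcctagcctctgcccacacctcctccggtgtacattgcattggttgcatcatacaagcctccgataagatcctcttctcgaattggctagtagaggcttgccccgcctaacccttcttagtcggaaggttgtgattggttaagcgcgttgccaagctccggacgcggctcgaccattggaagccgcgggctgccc
The palindrome begins 18 bases before the start in Zap70 and at base 4 after it in Elovl5, and TGACG begins 37 bases before the start in Aass. Shares are over genes with a window, which 11597 of the tested genes had. TGACGTCA was present in 4.88% of such fallen genes (4 genes), in 1.08% of such risen genes (1 gene) and in 3.21% of such tested genes (372 genes). TGACG on either strand was present in 30.5% of the fallen genes with a window (25 genes), in 19.4% of the risen (18 genes) and in 31.9% of the tested (3701 genes). The share among the fallen genes was thus near that of the tested genes, and a match of letters is no measure of binding.

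In the receptor's own cascade of 38 genes, from receptor to kinase, 3 fell (7.89%), none rose and the median was -0.01. These were Gcgr itself and 2 phosphodiesterases, which break down cAMP. Pde4b fell from 764, 1210 and 958 to 187, 217 and 257 (log2 fold change -2.13, SE 0.34, adjusted p = 0.0138, up to 0.0644 without wild-type library 2 or antibody-labelled library 1 or 2). Pde3b fell by 0.47 (adjusted p = 0.0453, up to 0.202 when any 1 of the 6 compared libraries was left out). The stimulatory G protein subunit Gnas stood at 0.26 (adjusted p = 0.73), the kinase subunit Prkaca at -0.03 (adjusted p = 0.978) and Creb1 at -0.19 (adjusted p = 0.756).

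Of 22 genes known to be induced by cAMP in liver, Pde4b was the single one that fell, with a list median of -0.36. An unadjusted p under 0.05 was reached by 8 of the 22, against 2057 of the 20029 tested genes. Crem, a repressor induced by CREB, stood at 1374, 1549 and 818 in wild type and at 753, 685 and 810 in antibody-labelled livers (log2 fold change -0.69, adjusted p = 0.161). Fosb ran the other way at 4.36, 9.03 and 8.43 in wild type and 22.5, 74.4 and 24.5 in antibody-labelled livers, and fell just short of the threshold (log2 fold change 2.16, adjusted p = 0.0503). None of 14 genes of gluconeogenesis passed (median -0.17). Pck1, which commits carbon to glucose, stood at 211053, 133844 and 221075 in wild type and at 141426, 93524 and 87062 in antibody-labelled livers, and the groups overlapped (log2 fold change -0.81, SE 0.30, adjusted p = 0.333). G6pc, which releases free glucose, stood at -0.58 (adjusted p = 0.649) and Ppargc1a at -0.74 (adjusted p = 0.619).

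On the side of glucose use, 3 of 28 genes of glycolysis and its factor ChREBP rose and 1 fell. Pklr, the liver pyruvate kinase, rose from 6110, 5471 and 3550 to 12432, 13424 and 11796 (log2 fold change 1.35, SE 0.17, adjusted p = 0.00394) and passed in all 18 alternatives. Slc2a2, the liver glucose transporter, rose from 17286, 11772 and 11213 to 21892, 21755 and 21876 (log2 fold change 0.73, adjusted p = 0.0442). Its antibody-labelled values were nearly the same, whereas wild-type library 1 stood above the other two. Txnip, a ChREBP target, rose by 0.66 (adjusted p = 0.0306) and Pfkfb2, which makes and removes fructose 2,6-bisphosphate, fell by 0.80 (adjusted p = 0.0162). The calls of Txnip (up to 0.15, any of the 6 compared libraries), Slc2a2 (up to 0.206, wild-type 2 or 3, knockout-labelled 1 or 3, or any antibody-labelled library) and Pfkfb2 (up to 0.0902, wild-type 1 or 3 or antibody-labelled 1 or 2) ended when 1 library was left out.

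Of 21 glycogen genes 1 rose, Gbe1, the branching enzyme, from 5898, 5066 and 5131 to 10803, 10268 and 11835 (log2 fold change 1.03, SE 0.13, adjusted p = 0.00343). Outside these lists and named after their values were seen, Aldoc, an aldolase, rose from 601, 541 and 612 to 1387, 1129 and 1215 (log2 fold change 1.08, adjusted p = 0.00343). Tkt, the transketolase of the pentose phosphate pathway, rose by 0.75 (adjusted p = 0.0162, up to 0.0905), a call that ended without wild-type library 1 or 2 or antibody-labelled library 1 or 3. Galk1, galactokinase, rose by 0.70 (adjusted p = 0.0192, up to 0.0994), a call that ended without any wild-type library or antibody-labelled library 1 or 2.

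Of 29 genes of fatty acid and triglyceride synthesis 2 fell and none rose. Fads2, the delta-6 desaturase, fell from 26212, 23440 and 16616 to 10795, 8291 and 8967 (log2 fold change -1.22, SE 0.19, adjusted p = 0.00889). Elovl5, an elongase of polyunsaturated fatty acids whose promoter is shown above, fell from 54802, 46487 and 42730 to 23324, 18686 and 27945 (log2 fold change -1.05, SE 0.17, adjusted p = 0.0127, up to 0.0661 without wild-type library 1 or 2 or antibody-labelled library 2). Fads1 at -0.53 (adjusted p = 0.0551) and Elovl2 at -0.86 (adjusted p = 0.0554), of the same pathway, lay just outside. The list's median was 0.16, with Scd1 at -0.08 (adjusted p = 0.959), Fasn at 1.09 (adjusted p = 0.107) and Srebf1 at 0.44 (adjusted p = 0.661).

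Cholesterol synthesis and uptake had the highest median of the lists of function, 0.78, with 22 of 24 fold changes positive. At an unadjusted p under 0.05 there were 17 of the 24, against 2057 of the 20029 tested genes. Only 2 genes of the list rose past the threshold. Fdps, farnesyl diphosphate synthase, rose from 369, 392 and 252 to 1695, 742 and 1008 (log2 fold change 1.70, SE 0.30, adjusted p = 0.0243). Lss, lanosterol synthase, rose from 1483, 1411 and 1298 to 3299, 2063 and 2711 (log2 fold change 0.92, SE 0.16, adjusted p = 0.0162). Antibody-labelled library 2 was the lowest of its group in both. The calls of Fdps and Lss ended without any wild-type library or antibody-labelled library 3, and that of Lss also without antibody-labelled library 1 (adjusted p up to 0.0728 and 0.0713). Soat2, which esterifies cholesterol and was named after its values were seen, rose by 0.63 (adjusted p = 0.0388, up to 0.178 over the alternatives), a call that ended without wild-type library 1 or 2, knockout-labelled library 3 or any antibody-labelled library.

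Of 38 genes of fatty acid oxidation 2 fell and 36 did not pass, with 34 fold changes negative and a median of -0.26. Cpt1a, which admits fatty acids to mitochondria, fell from 68525, 56324 and 57605 to 42345, 37444 and 37992 (log2 fold change -0.63, SE 0.12, adjusted p = 0.0297). Plin5, a lipid droplet coat protein, fell by 0.80 (adjusted p = 0.0441). Ppara, the factor that drives this programme, stood at -0.25 (adjusted p = 0.683). The call of Cpt1a ended when any 1 of the 6 compared libraries was left out, and that of Plin5 without any wild-type library, knockout-labelled library 2 or antibody-labelled library 1 or 2 (adjusted p up to 0.151 and 0.195). None of 30 genes of bile acid synthesis and transport passed, and Cyp7a1, the rate-limiting enzyme, spread from 7174 to 13315 in wild type and from 3344 to 17291 in antibody-labelled livers. Of 27 genes of lipoprotein assembly, Apon fell by 0.76 (adjusted p = 0.0248, up to 0.126 without wild-type library 1 or 2 or antibody-labelled library 2 or 3).

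**Figure D4:**
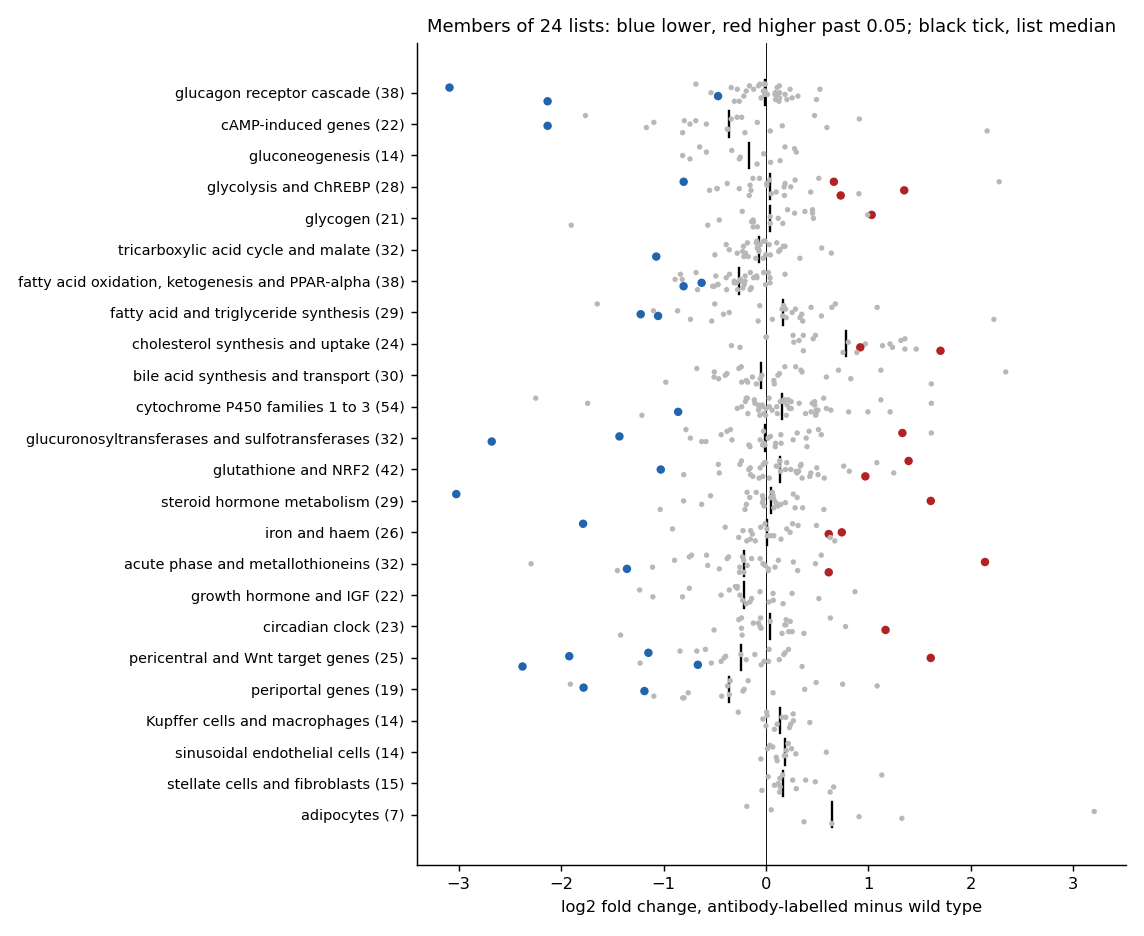
The x axis is the log2 fold change of antibody-labelled against wild-type livers for each tested member of 24 further lists, with the number of members in brackets, blue for genes that fell, red for genes that rose, grey for genes that did not pass and a black tick at the median. Cholesterol synthesis is the list of function farthest to the right by its median (0.78), and gluconeogenesis and bile acids have no coloured point.

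Among 32 glucuronosyltransferases and sulfotransferases 2 fell and 1 rose, and among 29 genes of steroid hormone metabolism 1 fell and 1 rose. Of 54 members of cytochrome P450 families 1 to 3 and their partners, only Por fell, the reductase that feeds them electrons (log2 fold change -0.86, SE 0.18, adjusted p = 0.0423, up to 0.181 when any of the 6 compared libraries or knockout-labelled library 3 was left out). Ugt1a9, a glucuronosyltransferase, fell from 9881, 8465 and 13143 to 3771, 3921 and 3795 (log2 fold change -1.43, SE 0.15, adjusted p = 0.0015). It shares its locus and last exons with other Ugt1a genes, so the split between them is uncertain. Hsd17b6, a hydroxysteroid dehydrogenase, rose from 7132, 7309 and 10236 to 20667, 24749 and 29644 (log2 fold change 1.61, SE 0.19, adjusted p = 0.00252), opposite to Cyp17a1. Sult1c2 rose by 1.33 (adjusted p = 0.0162, up to 0.0888 without any wild-type library or antibody-labelled library 2).

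In the list of 42 glutathione and NRF2 genes 2 rose and 1 fell. Among the mu-class glutathione transferases, Gstm1 and Gstm2 lie side by side and moved in opposite directions. Gstm1 rose from 22454, 16721 and 19116 to 36480, 38529 and 38446 (log2 fold change 0.97, SE 0.18, adjusted p = 0.0232). Gstm2 fell from 863, 718 and 819 to 413, 344 and 420 (log2 fold change -1.03, SE 0.16, adjusted p = 0.00896). The genes are close paralogs and Gstm2-ps1, annotated on chromosome 5, rose by 0.97 (adjusted p = 0.0162), so the assignment of reads among them is uncertain. Mgst3, a membrane-bound transferase, rose by 1.39 (adjusted p = 0.0299). The calls ended without wild-type library 2 or 3 or any antibody-labelled library for Gstm1 (up to 0.115) and Gstm2-ps1 (up to 0.0879), with these or knockout-labelled library 1 for Mgst3 (up to 0.124), and without antibody-labelled library 2 for Gstm2 (0.0504).

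Of 26 genes of iron and haem handling 2 rose and 1 fell. Tfrc, the transferrin receptor that takes up iron, fell from 2400, 1781 and 2404 to 593, 577 and 731 (log2 fold change -1.79, SE 0.30, adjusted p = 0.0242). Slc40a1, ferroportin, which exports iron, rose from 11071, 11163 and 8888 to 15843, 15985 and 20244 (log2 fold change 0.74, SE 0.13, adjusted p = 0.0182). Cp, ceruloplasmin, which oxidises exported iron, rose by 0.61 (adjusted p = 0.0483), and Hamp, the hormone hepcidin, stood at 0.49 (adjusted p = 0.778). All 3 calls ended when 1 library was left out: any of the 6 compared libraries for Tfrc (up to 0.109) and Cp (up to 0.212), and any but antibody-labelled library 1 for Slc40a1 (up to 0.0793).

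In the acute phase list of 32 genes, Orm3 and Cp rose and Orm2 fell (log2 fold change -1.36, adjusted p = 0.0413, up to 0.14 when any 1 of the 6 compared libraries was left out). Orm2 and Orm3 are neighbouring paralogs with uncertain read assignment. The metallothioneins, which bind zinc and copper, lay just outside the threshold. Mt2 stood at 2803, 3705 and 5006 in wild type and at 434, 1184 and 856 in antibody-labelled livers (log2 fold change -2.29, adjusted p = 0.0582), and Mt1 at -1.45 (adjusted p = 0.0621). In complement and coagulation 1 of 37 genes rose, C1s, by 0.49 (adjusted p = 0.0469, up to 0.196 when any 1 of the 6 compared libraries was left out).

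Genes of both ends of the liver lobule fell. Of 25 pericentral genes 4 fell and 1 rose, with a median of -0.25, and of 19 periportal genes 2 fell (Ass1 and Gls2), with a median of -0.36. The fallen pericentral genes were Oat, Lhpp, Rhbg and Gulo, and the risen one was Hsd17b6. Rhbg, an ammonium transporter, fell from 428, 440 and 429 to 234, 185 and 171 (log2 fold change -1.15, SE 0.16, adjusted p = 0.00463). Gulo, the last enzyme of vitamin C synthesis, fell by 0.66 (adjusted p = 0.0299, up to 0.146 without any wild-type library or antibody-labelled library 2 or 3). Cyp2e1 (-0.19, adjusted p = 0.841) and Axin2 (-0.44, adjusted p = 0.769), other pericentral genes, did not pass.

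Of 23 clock genes 1 rose, Bhlhe40, a repressor of the clock, from 5097, 4497 and 3878 to 8674, 10488 and 11097 (log2 fold change 1.17, SE 0.15, adjusted p = 0.00343). Arntl (-0.24, adjusted p = 0.968), Nr1d1 (-0.23, adjusted p = 0.841) and Dbp (0.22, adjusted p = 0.971) did not pass and varied widely within each group. In the stress response driven by ATF4, Psat1 rose and Cth fell among 25 genes, with Asns at -1.07 (adjusted p = 0.636). No gene passed among 22 of the growth hormone axis, where Igf1 stood at -0.81 (adjusted p = 0.0911), 30 of insulin signalling, 24 male-biased genes, 43 interferon-induced genes, 38 of the cell cycle, 38 of autophagy, 21 chaperones and 32 circulating liver hormones, with Fgf21 at -0.47 (adjusted p = 0.912). None of 78 subunits of oxidative phosphorylation (67 negative, median -0.09) or of 79 cytosolic ribosomal proteins (71 positive, median 0.12) passed either. At an unadjusted p under 0.05 there were 1 and 3, against 2057 of the 20029 tested genes.

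The markers of the cells in a liver punch give the makeup beside these changes. Of 13 hepatocyte markers 1 fell, and Alb, albumin, stood at 788131, 677034 and 817551 in wild type and at 730963, 665037 and 740483 in antibody-labelled livers. None of the markers of Kupffer cells (14 tested), neutrophils (10), sinusoidal endothelial cells (14), stellate cells (15), cholangiocytes (10), erythroid cells (9), pancreatic acinar cells (4), adipocytes (7) or skeletal muscle (2) passed. The summed endothelial markers ranged from 33529 to 37635 in wild type and from 38053 to 41686 in antibody-labelled livers, without overlap, and 13 of 14 fold changes were positive (median 0.19). The summed adipocyte markers ranged from 2802 to 2974 in wild type and from 3490 to 4726 in antibody-labelled livers, without overlap. Of the 7 tested adipocyte markers 6 had positive fold changes (median 0.64, highest 3.21 for Cfd). Of these 7, 4 did not overlap between groups and 4 were at an unadjusted p under 0.05. Over all tested genes 19.2% did not overlap and 2057 of 20029 were at an unadjusted p under 0.05. Cfd stood at 6.54, 15.0 and 8.39 in wild type and at 420, 95.1 and 21 in antibody-labelled livers (adjusted p = 0.357), Lep and Retn were at the floor of 1 in all 9 libraries, and Adipoq lay between 1 and 5.45. The Kupffer cell sums overlapped (30903 to 40694 and 36738 to 40607). A lean to positive fold changes was not particular to endothelial and fat markers. It was also held by 14 of 15 stellate (median 0.16), 9 of 10 neutrophil (0.33) and 12 of 14 Kupffer cell markers (0.13), against 10073 of all 20029 tested genes. Negative fold changes were held by 10 of 13 hepatocyte (median -0.11), 7 of 9 erythroid (-0.21) and 12 of 21 lymphocyte markers (-0.17). Of 14 acinar and 11 muscle markers, 9 each were at the floor in all libraries.

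Of 8 caveola genes Cav1 and Cav2 rose beside these sums, and the part of endothelial, fat or other cells in that was not tested. Cav2 rose from 279, 280 and 320 to 520, 674 and 555 (log2 fold change 0.98, SE 0.19, adjusted p = 0.0244, up to 0.129 without wild-type library 1 or 2 or any antibody-labelled library). The caveola coat gene Ptrf stood at 0.22 (adjusted p = 0.799) and Sdpr at 0.10 (adjusted p = 0.916). Cav2 and Cav1 are neighbours on chromosome 6, 17219 bases apart. Tes, a nearby gene of cell adhesion, rose from 37.0, 38.5 and 63.0 to 225, 318 and 174 (log2 fold change 2.35, adjusted p = 0.00526) and passed in all 18 alternatives.

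In 18 places 2 called genes are next to each other in the order of tested genes, whatever their distance (2093432 bases for Gbe1 and Robo1). Of these pairs 13 moved the same way, and 5 overlap in coordinates, where reads may be shared. The same counts were not made over all neighbouring tested genes, so whether 18 or 13 is unusual was not tested. Golt1a, Kiss1 and Ren1 lie in a row on chromosome 1 and all fell. Kiss1, whose product kisspeptin is a secreted peptide, stood at 105, 80.8 and 41.0 in wild type and at 6.80, 9.19 and 7.22 in antibody-labelled livers (log2 fold change -3.04, SE 0.47, adjusted p = 0.00889). It overlaps Golt1a on the same strand, and Golt1a fell by 0.75 (adjusted p = 0.00957, up to 0.0529 without wild-type library 1 or 2). Ren1, renin, held 5.60 to 6.72 in wild type and the floor value of 1 in all antibody-labelled livers, a call that ended when any 1 of the 6 compared libraries was left out (adjusted p up to 0.155). Cend1 and Slc25a22 on chromosome 7 are 247 bases apart and both fell, Cend1 from 26.2, 40.6 and 31.6 to 1, 3.46 and 5.26. The lectin genes Cd209f and Cd209g on chromosome 8 both rose, Cd209f from 11.5, 6.02 and 14.8 to 68.0, 112 and 89.4 and Cd209g from 2.18, 1.49 and 1 to 17.5, 25.9 and 17.2.

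The lists held 63 of the 268 called genes, and the other 205 belonged to none. A few of the latter, named after their values were seen, passed in all 18 alternatives. Slc13a2, a citrate and succinate transporter, fell from 119, 124 and 139 to 16.3, 23.8 and 27.0 (log2 fold change -2.48, SE 0.26, adjusted p = 0.0015). AI118078 fell from 230, 144 and 92.5 to 1, 3.46 and 1.75 (adjusted p = 0.00169). Agpat6, which acylates glycerol phosphate at the start of glycerolipid synthesis, fell from 20107, 19114 and 15514 to 9308, 8352 and 9164 (log2 fold change -1.02, adjusted p = 0.00306). Dpyd, which starts the breakdown of uracil and thymine, fell by 0.81 (adjusted p = 0.005). Chic1 fell by 2.43 (adjusted p = 0.00395), and Accn5, an ion channel of the acid-sensing family, by 1.59 (adjusted p = 0.00252).

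Among risen genes outside the lists, Ces2g, a carboxylesterase, rose from 1467, 1332 and 1412 to 2932, 3546 and 3774 (log2 fold change 1.28, SE 0.15, adjusted p = 0.00252). Synj2, a phosphoinositide phosphatase, rose from 169, 123 and 113 to 372, 465 and 493 (log2 fold change 1.72, adjusted p = 0.00185). Mfge8, which bridges dying cells to phagocytes, rose by 1.03 (adjusted p = 0.00395), Ptp4a3, a prenylated phosphatase, by 1.28 (adjusted p = 0.00242), and Gpr64, an adhesion receptor, by 1.80 (adjusted p = 0.00395). These 5 passed in all 18 alternatives with their groups apart. Of lower genes, Ptges, a prostaglandin E synthase, rose from 4.32, 11.3 and 10.5 to 48.9, 56.6 and 65.4 (log2 fold change 2.66, adjusted p = 0.00936). Ucp2, a carrier of the inner mitochondrial membrane, rose from 2766, 2265 and 2768 to 4778, 5549 and 4487 (log2 fold change 0.93, adjusted p = 0.0101, up to 0.0577 without wild-type library 2 or antibody-labelled library 2).

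The knockout-labelled livers share the wild-type controls, so their values are given side by side and their difference from the antibody-labelled livers was tested directly, where 56 of 20029 genes passed (0.28%). Got1 stood at 7698, 4513 and 10407 in knockout-labelled livers, -1.93 from wild type against -3.16 for the antibody-labelled livers, and the direct difference of -1.23 did not pass (SE 0.26, adjusted p = 0.0884). Oat at -1.25 and -2.38 (direct -1.13, adjusted p = 0.070), Slc7a2 at -1.12 and -1.27 (direct -0.16, adjusted p = 0.73) and Aqp8 at 1.70 and 2.34 (direct 0.64, adjusted p = 0.16) did not pass in the direct contrast either. Nnmt at -1.65 and -6.07 had a direct difference of -4.43 with a wide error (SE 0.72, adjusted p = 0.0679). The direct contrast was passed by Cav1, which stood at 350, 607 and 454 in knockout-labelled livers (direct 2.72, SE 0.31, adjusted p = 0.0265), and by Pcp4l1 (direct 1.60, adjusted p = 0.0267).

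Aass stood at 28311, 35744 and 28281 in knockout-labelled livers (direct -0.88, SE 0.13, adjusted p = 0.0267), Mat1a at 282462, 264824 and 244568 (direct -0.77, adjusted p = 0.0469) and Elovl5 at 43100, 56596 and 40583 (direct -1.01, adjusted p = 0.047). These 3 enzymes were thus lower in the antibody-labelled than in both other groups. Ugt1a9 (direct -1.35, adjusted p = 0.0119), Sult5a1 (direct -2.25, adjusted p = 0.047), Tfrc (direct -2.09, adjusted p = 0.0435) and 1300015D01Rik (direct -2.12, adjusted p = 0.0267) were lower as well. Slc40a1 (direct 0.94, adjusted p = 0.0267), Fabp5 (direct 1.57, adjusted p = 0.047), Hcn3 (direct 1.78, adjusted p = 0.0492), Epb4.1l1 (direct 1.54, adjusted p = 0.045) and 4930485B16Rik (direct 1.61, adjusted p = 0.0356) were higher. Gcgr had the smallest adjusted p of this contrast among the named genes (direct -3.37, SE 0.15, adjusted p = 8.37e-07). The direct contrast uses the antibody-labelled libraries of the main comparison, so it is no independent measure of these genes.

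**Figure D5:**
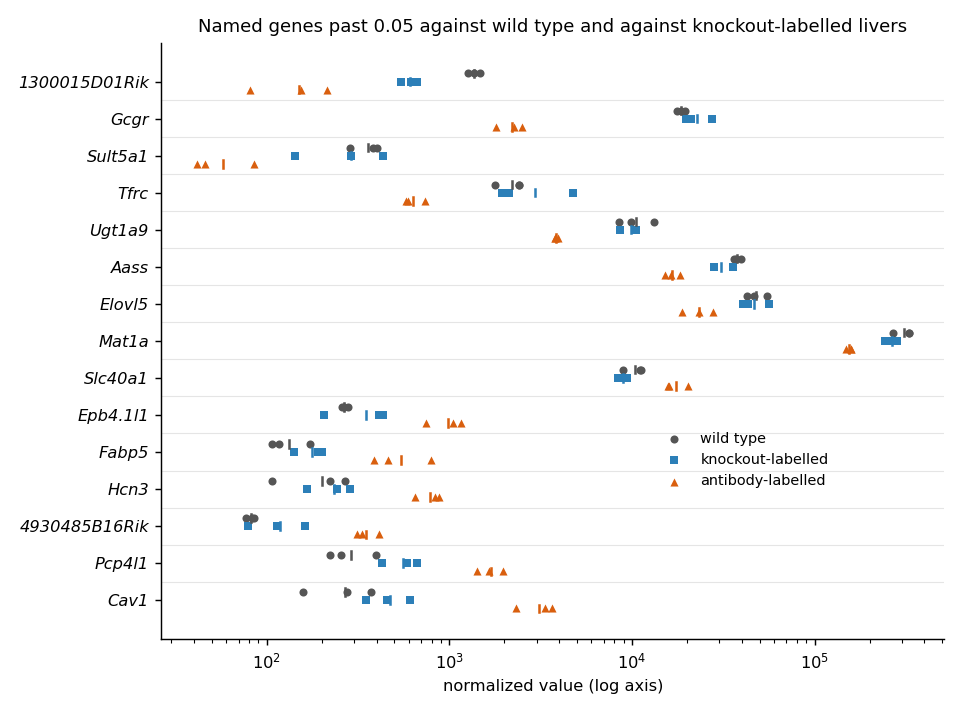
Each point is the normalized value of 1 liver on a log axis for the named genes that passed the threshold against wild type and in the direct contrast with knockout-labelled livers, with grey circles for wild type, blue squares for knockout-labelled, orange triangles for antibody-labelled and a tick at each group mean. The genes were chosen for passing both contrasts. In each the 3 antibody-labelled livers lie to 1 side of the other 6, which this choice favours, as for Cav1 at 2310 to 3644.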

How the data were processed

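Liver RNA of 9 mice in 3 labelled groups was sequenced, and 6 libraries are compared here. The authors deposited 1 table of signal values per gene, normalized between libraries with a floor of 1. Per the submitters' processing notes, TopHat2 2.0, SAMtools and FastQC were used with build mm9. Which tools counted and normalized is not given in the sources used here. Depth was estimated from the spacing of low values. Since only 40.8 to 45.8% of these fell on whole steps, reads were not recovered and no count test was run.

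Of 37583 genes, the 20029 above 1 in at least 3 of the 9 libraries were tested on log2(value + 1) with limma 3.58.1 in R 4.3.3 (trend and robust options, 3 group means, two-sided). P-values were adjusted by Benjamini-Hochberg over all tested genes with a threshold of 0.05. A fold change on this scale understates the change of low genes. On simulated data of the same size with independent normal noise, 76% of genes changed 2-fold were recovered in each direction. Changes were placed only in well-expressed genes, so this share does not cover low genes.

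The genes and the 59 lists (1313 tested genes) were chosen with earlier results of these data known, so list counts are descriptions. Named genes are Gcgr, the 12 highest and 12 lowest fold changes among called genes whose groups do not overlap and whose higher group mean is at or above the median, up to 5 called members per list, and members given as not passing. Some genes that this rule names are not reported here. Others are said to be named after their values were seen, which also holds for the risen genes outside the lists. Tes, Kiss1, Golt1a, Ren1, Cend1, Cd209f, Cd209g, Ctcfl and Gstm2-ps1 are outside the rule too and were taken from the called genes. Marker sums are sums of normalized values. Promoter windows are from RefSeq, matched by symbol. Gene coordinates are the table's own (mm9) and were not mixed with those of the windows. The 18 alternatives changed the pseudocount, filter, libraries fitted, variance options, scaling, weights or replicate block, or left out 1 library. Tables and figures used Python 3.11.15, pandas 2.3.3 and matplotlib 3.10.9.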

Additional observations from a re-analysis of the deposited data

How the results depend on the processing

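The 268 genes past the threshold became 71 with limma's trend and robust options off and 666 with library weights, and ranged from 105 to 290 when 1 library was left out. The 63 called list members became 21 and 125 under the same settings and ranged from 35 to 73. The cause was not tested. Of the 268 genes, 66 were also called without trend and robust options, 268 with library weights and 95 without antibody-labelled library 2. The other alternatives gave between 211 and 363 genes. Over the 18 alternatives, the 75 called named genes gave 1350 values, of which 1067 kept their direction and passed, 283 kept their direction without passing and 0 reversed. With only the 6 compared libraries fitted, 69 of the 75 calls were kept. Those lost were Rgs16, Fdps, Mcart1, Slc2a2, Olfr9 and Fam198a. With the trend and robust options off, 27 of the 75 calls were kept. Genes that held in every fit without 1 library but ended there were Ass1, Slc25a15, Hgd, Fads2, Fh1, Sult5a1, Hcn3, Epb4.1l1 and Slc25a45. Gcgr ranged from -3.19 to -2.96 when 1 library was left out.

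Wild-type and antibody-labelled livers share only a replicate number. The correlations of same-numbered deviations were 0.126, 0.0151 and 0.0990, so the numbers were not taken to pair the livers. A fit with the replicate block called 251 genes, 208 of them among the 268.

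The depth is an estimate, so no counting interval is given. In 18 called genes the wild-type mean was under 10, close to the floor.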
